A study of Mus musculus with 93 samples.

Results

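Blood arrays of tumor-bearing mice were ordered by the transcripts of neutrophil granule proteins, and the 17 arrays with the highest values were compared with the 17 arrays with the lowest. The score of an array was the mean, over Ltf, Camp, Ngp and Lcn2, of its log2 value expressed in standard deviations around the mean of the 51 tumor arrays ranked. These 51 arrays, numbered 6 to 32 in the training cohort and 9 to 33 without 19 in the validation cohort, were part of 65 tumor arrays among 93 arrays in all. The remaining 17 ranked arrays formed a middle tier. The high and low tiers were thus chosen by the measured log2 values of these 4 genes on the same arrays, and the score genes are given as a description with no test. An adjusted p elsewhere in the contrast states how far a gene moved with the score, relative to the spread between arrays, in arrays already sorted by that score.

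All ranked arrays came from female MMTV/c-MYC mice in an FVB/NJ background with advanced mammary tumors. In these mice the hormone-responsive MMTV promoter drives c-MYC or a more stable point variant of it, in several transgenic lines kept in continuous breeding. The line, the form of the transgene and the age of each animal were not given per array, so the tiers may hold different mixes of them. The 28 control arrays came from wild-type FVB/N females without tumors, matched for age and parity, and 13 tumor arrays with lower numbers (1 to 5 in training, 1 to 8 in validation) were not used to form the score.

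Each sample was RNA of total white blood cells, taken from the cheek vein and freed of erythrocytes by lysis, so the values are averages over a mixture of cell types. A transcript may fall in such a sample with fewer cells of a type, with less RNA per cell, or with more RNA from other cells. The values are relative to the whole sample, and these cannot be told apart. Animals are not named in the labels, so a p-value speaks of array-to-array spread, part of which may be technical. Genes that all leukocytes express were bright throughout: the mean log2 value of 8 pan-leukocyte genes lay between 12.59 and 12.93 in the high tier, between 12.36 and 12.78 in the low tier, and between 12.45 and 12.66 in control arrays.

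Neutrophils store their antimicrobial proteins in granules that are made in sequence as the cell matures in the bone marrow. Primary granules, with myeloperoxidase and serine proteases, are filled at the promyelocyte stage. Specific granules, with lactoferrin, the cathelicidin and lipocalin 2, follow in myelocytes and metamyelocytes, and gelatinase granules and secretory vesicles come last. The messages for primary and specific granule proteins are largely switched off before a neutrophil leaves the marrow, so in blood they mark the younger granulocytes. Growth of a tumor is known to raise granulocyte output in several mouse models, and factors such as G-CSF both expand granulocytes and release them earlier.

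The promoters of the 4 score genes are shown because these genes were chosen together and moved together. C/EBP factors and PU.1 drive granulocyte genes, and each 300-base window was searched for TTNNGCAA, an octamer that C/EBP factors can bind, and for GAGGAA, a core that PU.1 can bind, on both strands. The windows are those of RefSeq on GRCm38.p6, from 250 bases before the start to 50 after it, written 5′ to 3′ on the strand of the gene, with matches to TTNNGCAA on either strand in capitals. They lie at chr9:111019042-111019341 on the plus strand for Ltf, chr9:109849407-109849706 on the minus strand for Camp, chr9:110419558-110419857 on the plus strand for Ngp and chr2:32387690-32387989 on the minus strand for Lcn2.
Ltf: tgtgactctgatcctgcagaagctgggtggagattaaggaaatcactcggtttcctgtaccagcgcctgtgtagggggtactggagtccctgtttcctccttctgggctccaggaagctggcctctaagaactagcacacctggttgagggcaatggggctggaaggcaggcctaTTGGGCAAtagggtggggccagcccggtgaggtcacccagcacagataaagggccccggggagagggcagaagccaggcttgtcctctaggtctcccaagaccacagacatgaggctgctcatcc
Camp: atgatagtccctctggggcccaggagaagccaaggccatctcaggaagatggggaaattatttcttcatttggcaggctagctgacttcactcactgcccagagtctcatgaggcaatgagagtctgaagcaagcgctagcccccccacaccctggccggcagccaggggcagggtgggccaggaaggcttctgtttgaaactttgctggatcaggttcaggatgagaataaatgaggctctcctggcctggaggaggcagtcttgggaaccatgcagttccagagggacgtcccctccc
Ngp: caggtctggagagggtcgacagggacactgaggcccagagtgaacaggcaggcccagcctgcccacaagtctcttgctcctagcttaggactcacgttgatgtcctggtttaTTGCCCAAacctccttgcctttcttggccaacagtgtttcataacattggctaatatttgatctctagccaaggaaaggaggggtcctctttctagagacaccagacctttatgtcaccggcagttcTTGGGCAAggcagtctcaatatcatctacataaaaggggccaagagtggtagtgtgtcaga
Lcn2: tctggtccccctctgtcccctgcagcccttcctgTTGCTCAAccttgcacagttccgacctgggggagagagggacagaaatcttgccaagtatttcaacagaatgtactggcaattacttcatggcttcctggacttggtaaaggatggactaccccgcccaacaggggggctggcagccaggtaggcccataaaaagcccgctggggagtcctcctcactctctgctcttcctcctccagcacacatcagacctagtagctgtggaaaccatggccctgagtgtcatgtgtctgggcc

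The Ngp window held 2 matches to TTNNGCAA, beginning 138 and 11 bases before the start. The Ltf window held 1, at 75 bases before the start, the Lcn2 window held 1, at 216 bases before it, and the Camp window held 0. GAGGAA was found once in Ltf and once in Lcn2, and in neither of the other windows. Of 32851 mouse promoter windows of this length, 10.8% held TTNNGCAA and 28.3% held GAGGAA. Among windows of genes that were higher in the high tier the shares were 9.71% and 30.4%, and among windows of genes that were lower they were 7.84% and 24.8%. These are counts of letters, and they do not say where a factor was bound in these cells.

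Ltf encodes lactoferrin, the iron-binding protein of specific granules, and it spanned the widest range of the score genes. Its log2 value had a lowest, median and highest array of 11.4, 12.1 and 13.5 in the high tier, 8.62, 9.29 and 10.8 in the low tier, and 6.57, 9.67 and 12.2 in controls. Camp, the mouse cathelicidin, stood at 11.7, 12.7 and 14 in the high tier against 9.51, 10.5 and 11.4 in the low tier. For both genes, and for the neutrophilic granule protein Ngp (11, 11.7 and 12.6 against 9.02, 9.82 and 10.7), the tiers did not overlap, which the choice of arrays favored. Lcn2, the siderophore-binding lipocalin 2, had the smallest range, at 12.9, 13.3 and 13.6 against 12, 12.3 and 13, and 16 of 17 high arrays lay above the highest low array. The difference of means was 2.77 for Ltf, 2.27 for Camp, 1.96 for Ngp and 0.96 for Lcn2.

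**Figure D1:**
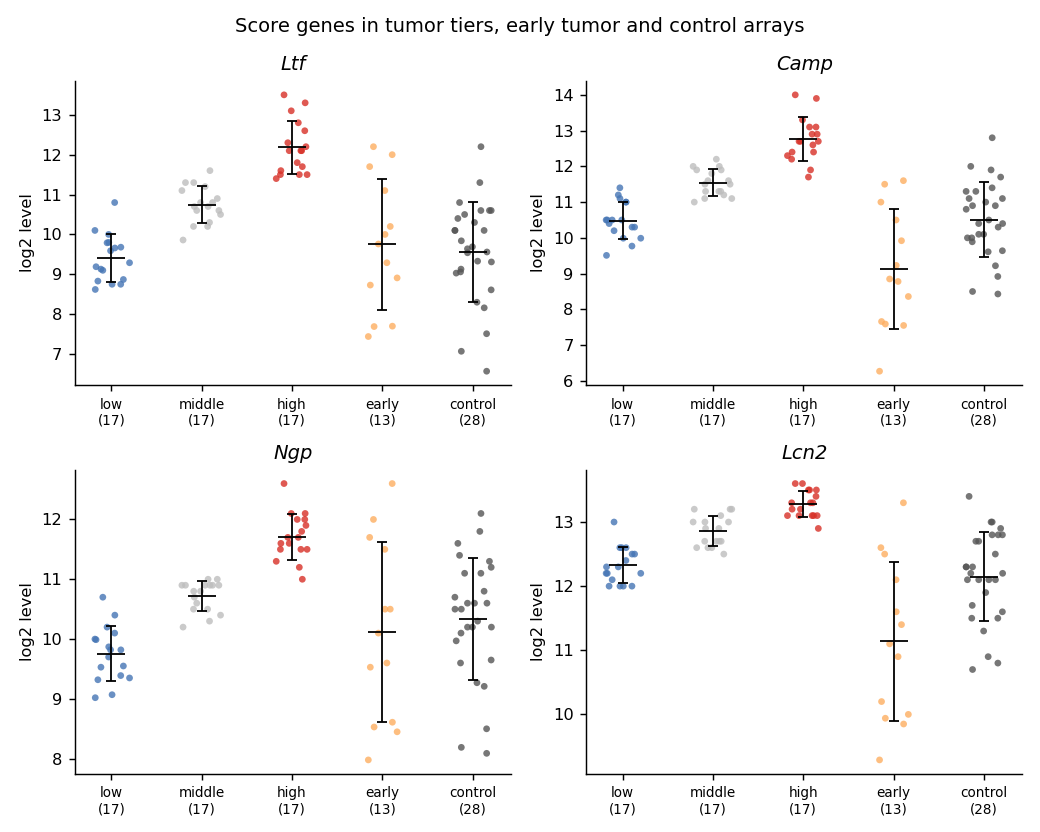
Log2 values of Ltf, Camp, Ngp and Lcn2 (vertical axis) on each array of the high, middle and low tiers of tumor arrays, the 28 control arrays and the 13 low-numbered tumor arrays, marked early (horizontal axis); points are arrays and black bars are the mean ± SD. Control arrays spread over a wider range than any tier, for Ltf from 6.57 to 12.2.

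The score ran from 2.05 (training array 15) to -1.69 (validation array 14). The last high array (validation 18) had a score of 0.597 and the first middle array (training 21) 0.303, while the last middle array (training 18) had -0.359 and the first low array (training 22) -0.54. The high tier held 8 training and 9 validation arrays, and the low tier 11 and 6. On the same scale the control arrays ran from -3.40 to 1.05, and 18 of 28 lay at or below the highest low tumor array while 1 reached the lowest high one. Of the 13 low-numbered tumor arrays, 9 lay at or below the highest low array and 1 reached the lowest high one.

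Measures of RNA and labelling differed between the tiers. By permutation tests of means (100000 resamples, two-sided, 17 arrays in each tier, adjusted over 10 measures), the dap, lys, phe and thr spike-ins were lower in the high tier by 0.63 to 0.76 on the log2 scale (adjusted p = 0.0138 to 0.018), with dap between 6.9 and 9.57 there against 7.45 and 10.8 in the low tier. The 18S probe set differed by -0.58 in means (adjusted p = 0.039) but by -0.05 in medians (adjusted p = 0.661), and the lys difference in medians was -0.59 (adjusted p = 0.0538), while the 5′ minus 3′ difference of actin (0.10, adjusted p = 0.681) and the array median (-0.01, adjusted p = 0.644) did not pass. Nor did the array number in the label (-5.59, adjusted p = 0.0838), the 5′ minus 3′ difference of GAPDH (0.25, adjusted p = 0.0865) or trp (-0.06, adjusted p = 0.522). Training array 22, in the low tier, had the lowest actin and GAPDH 5′ minus 3′ differences of the 34 arrays, -2.3 and -3.95. Dap lay between 1.74 and 3.55 in control arrays and between 2.11 and 3.83 in low-numbered tumor arrays, so its level there cannot be set against the tiers. The level of any gene in those arrays, where given beside the tiers, shares this limit. With dap as a covariate in limma, 2793 probe sets were called higher and 2617 lower, against 5531 (12.3%) and 4381 (9.73%) without it, and 30 of the 134 genes named with values lost their call, among them Cybb, Vcan, Cd37, Ptprc, Krt8, Epcam and Egr1. With the mean of erythroid genes as a covariate 35 lost it. Without training array 22, Itga2b and Krt18 were no longer called.

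A large part of the transcriptome moved with the score. Of 18189 genes tested, limma called 4602 (25.3%), 2352 higher in the high tier (12.9%) and 2250 lower (12.4%), and the median difference over all genes was -0.06. Large changes were mostly upward: 191 genes were higher by more than 1 on the log2 scale (1.05%) and 126 were lower by as much (0.693%). The 17 high and 17 low arrays did not overlap for 18 genes that were higher (0.0990%) and for 0 genes that were lower. The mean of the middle tier lay between the other means for 93.9% of the higher genes, 93.02% of the lower genes and 57.5% of all genes, which is a description only, because genes called for a wide gap leave more room for a mean between. Within the 17 middle arrays alone, which span scores from -0.359 to 0.303, limma called 0 slopes on the score (2747 probe sets at an unadjusted p under 0.05), and Lipg, Saa3 and Prok2 had slopes of -0.030, -0.12 and -0.44, an alternative chosen after seeing the data.

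Among the 12 largest rises, Lipg, the endothelial lipase that hydrolyzes phospholipids of lipoproteins, stood first. Its log2 value was 6.97, 9.28 and 12.4 (lowest, median, highest) in the high tier and 3.0, 3.68 and 6.25 in the low tier, with a control median of 3.39. Every high array lay above every low array, a difference of 5.74 ± 0.399 (SE, n = 17 and 17, adjusted p = 2.24e-12), or 53.3-fold. Most low arrays lay below the median value of an array (4.3 to 4.9), where little beyond background is recorded, so the fold depends on a level that is poorly fixed. The same limit holds for other genes named here. In both tiers the median lay at or below 4.9 for Elane, Prg2, Ms4a3, Il4, Car1, Erg and Krt8, and in 1 of the tiers it did so for Kit, Prom1, Cpne8, Abca13, Gm11545, Mpp2, Bmp8a, Pawr, Mpo, Fcnb, Il5ra, Tpx2, Meis1 and Krt18. The differences printed for these genes rest in part on levels near background. All 3 probe sets of Lipg were called in the same direction, and the difference was 6.64 within the training cohort and 4.57 within the validation cohort.

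Saa3, an acute phase serum amyloid A that macrophages and other cells make outside the liver, had 7.89, 11.7 and 13.2 in the high tier and 5.22, 7.4 and 9.85 in the low tier. It rose by 4.09 ± 0.405 (adjusted p = 4.38e-09), and 16 of 17 high arrays exceeded the highest low array. Prok2, encoding prokineticin 2, a chemoattractant peptide that neutrophils make, had 9.33, 11.2 and 12.6 against 6.23, 7.82 and 9.94, a rise of 3.24 ± 0.283 (adjusted p = 3.78e-10). Orm1, the acute phase protein orosomucoid 1, had 6.64, 7.68 and 9.79 against 4.05, 4.97 and 6.05, and its tiers did not overlap (2.92 ± 0.237, adjusted p = 1.55e-10). Saa3, Prok2 and Orm1 rose within both cohorts, by 4.61, 3.50 and 3.44 in training and by 3.43, 2.92 and 2.25 in validation.

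**Figure D2:**
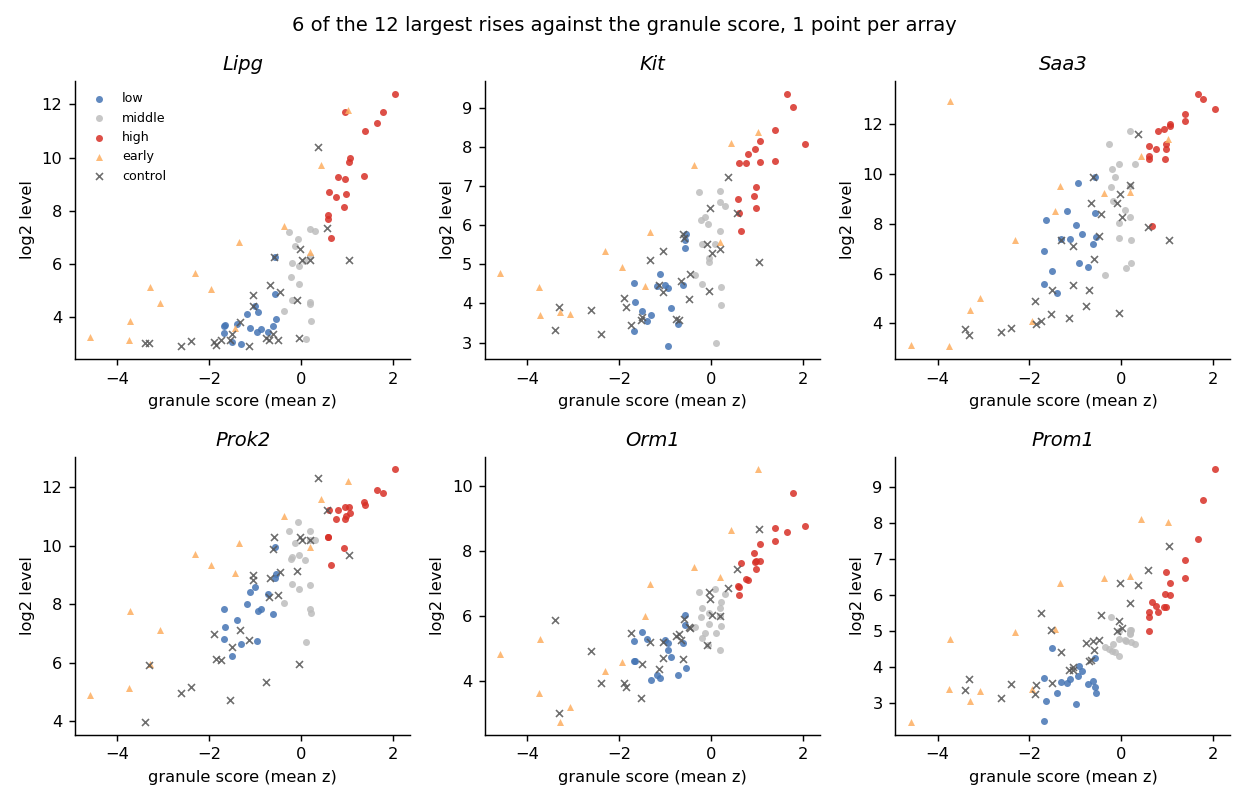
Log2 value (vertical axis) of 6 of the 12 largest rises against the granule score (horizontal axis, mean z over the score genes); each point is an array, with tiers in color, low-numbered tumor arrays as triangles marked early and controls as crosses. Lipg spans 3.0 to 12.4 over the high and low tiers, and the control arrays, which end at a score of 1.05, do not reach the top of the tumor range for it.

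Kit and Prom1 are not granule genes. Kit is the receptor for stem cell factor, present on progenitors and mast cells, and its log2 value was 5.84, 7.62 and 9.36 in the high tier and 2.9, 4.4 and 5.78 in the low tier. It rose by 3.33 ± 0.288 (adjusted p = 3.09e-10), with no overlap of the tiers and with rises of 3.81 in training and 2.70 in validation. Prom1, the membrane protein CD133, had 4.99, 6.01 and 9.49 against 2.5, 3.57 and 4.51 and rose by 2.90 ± 0.29 (adjusted p = 4.48e-09), again without overlap. Other genes of progenitor cells did not follow. Of 11 in the list, 2 rose (Kit and Erg, the latter by 0.33) and 4 fell, with a median of -0.14. Of all genes, 12.9% were higher and 12.4% lower. Meis1, a homeobox gene of stem and progenitor cells, fell by 0.63 (adjusted p = 0.00373), Adgrg1, an adhesion receptor of stem cells and NK cells, by 0.66 (adjusted p = 0.0162) and the transcription factor Sox4 by 0.53 (adjusted p = 0.0437). These 3 falls lost their call with dap or the erythroid mean as a covariate, and the rise of Erg did with the erythroid mean.

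The other large rises were of mixed kinds. Stfa3, a stefin that inhibits cysteine proteases, rose by 3.17 ± 0.384 (adjusted p = 1.68e-07), with 8.37, 9.96 and 13 in the high tier against 5.81, 7.12 and 9.97 in the low tier. Cpne8, a calcium-dependent phospholipid-binding copine, rose by 2.85, Abca13, a transporter of the ABC family, by 2.72, and Reck, a membrane inhibitor of matrix metalloproteinases, by 2.58. Ambp, the precursor of the plasma protein alpha-1-microglobulin and bikunin, rose by 2.53, and Gm11545, a predicted gene, by 2.45. Adjusted p-values of these 5 genes lay between 5.58e-10 and 6.89e-07. In all, tiers did not overlap for 5 of the 12 genes.

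Granule proteins that had no part in the score were examined by granule type, bearing in mind that co-varying genes of the same cells were used to sort the arrays. Counts in this list and in those that follow stand beside 12.9% of all genes higher and 12.4% lower. Of 21 specific granule genes tested, 19 rose and 0 fell, with a median difference of 1.08 against -0.06 over all genes. Chil1, a chitinase-like protein of specific granules, had 11.9, 12.6 and 13.3 in the high tier and 11.2, 11.5 and 11.9 in the low tier, and it rose by 1.08 ± 0.0956 (adjusted p = 4.31e-10). Olfm4, olfactomedin 4, which marks a subset of neutrophils, rose by 1.75 ± 0.187 (adjusted p = 1.4e-08), from a median of 8.06 to 9.86 with ranges that overlapped slightly (8.66 to 11.6 against 7.5 to 9.02).

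Lrg1, a leucine-rich glycoprotein, rose by 1.31 ± 0.132 (adjusted p = 5.61e-09), and Pglyrp1, which binds bacterial peptidoglycan, by 0.71 ± 0.0736 (adjusted p = 7.54e-09). The members that did not pass were Lyz2 (0.06, adjusted p = 0.252), the lysozyme gene shared with monocytes, and Ceacam1 (0.23, adjusted p = 0.0599). Lyz2 had a median of 13.6 in both tiers, close to the top of the array's range. The mean over the 21 genes ran from 10.36 to 11.79 in the high tier and from 9.402 to 10.24 in the low tier, without overlap, and from 8.736 to 10.72 in control arrays.

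In the primary granule list 8 of 8 genes rose, with a median of 0.65. The list also counts the protease inhibitor Serpinb1a and the eosinophil protein Prg2. Prtn3, proteinase 3, had 6.08, 7.99 and 8.58 in the high tier against 5.56, 6.37 and 8.17 in the low tier, so the tiers overlapped widely (1.20 ± 0.238, adjusted p = 0.000303). Serpinb1a, an inhibitor of neutrophil serine proteases, rose by 0.77 ± 0.167 (adjusted p = 0.000873). The proteases' classical companions were dim in blood: Mpo, myeloperoxidase, had 4.84, 5.51 and 7.6 against 3.73, 4.68 and 5.93 (0.86 ± 0.24, adjusted p = 0.00783), and Elane, neutrophil elastase, had 2.59, 3.32 and 4.03 against 2.22, 2.65 and 4.37 (0.58 ± 0.157, adjusted p = 0.00666).

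Ms4a3 (0.67, adjusted p = 0.0235), a membrane protein of granulocyte precursors, and Prg2 (0.63, adjusted p = 0.0236), the major basic protein of eosinophils, were at the weak end of the primary granule list. Within the validation cohort alone the Mpo difference was 0.43 (adjusted p = 0.521). Serpinb1a, Elane, Ms4a3 and Prg2 lost their call with the erythroid mean as a covariate. In the gelatinase granule list 7 of 8 genes rose, with a median of 0.70. The list also counts Dgat1 and Dgat2, enzymes of triglyceride synthesis rather than granule proteins, which both rose, Dgat2 by 1.42 ± 0.156 (adjusted p = 2.18e-08). Mmp9, gelatinase B, rose by 0.72 ± 0.0885 (adjusted p = 1.96e-07), and Slc11a1, the phagosomal metal transporter NRAMP1, by 0.67 ± 0.0987 (adjusted p = 3.76e-06).

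Itgam, the integrin alpha chain CD11b, had 8.38, 8.98 and 9.71 in the high tier and 7.49, 8.08 and 8.63 in the low tier (0.98 ± 0.12, adjusted p = 1.99e-07). Its control median was 6.98, below both tiers, on arrays that also differed from the tiers in dap. The calgranulins S100a8 and S100a9 are the most abundant cytosolic proteins of neutrophils. S100a8 rose by 0.15 ± 0.0496 (adjusted p = 0.0262) and S100a6, a small calcium-binding relative, by 0.53 ± 0.0672 (adjusted p = 3.45e-07), while S100a9 differed by -0.16 ± 0.0609 (adjusted p = 0.053). S100a9 lay between 13.5 and 14.4 on every high and low array, close to the 14.9 maximum of the table, where an array has little room to record a rise. Over the 51 tumor arrays limma called a negative slope of S100a9 on the score (-0.076 per unit, adjusted p = 0.012). Of the stefins 2 of 2 rose, Stfa3 and Stfa2l1 (0.72 ± 0.0983, adjusted p = 1.07e-06).

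**Figure D3:**
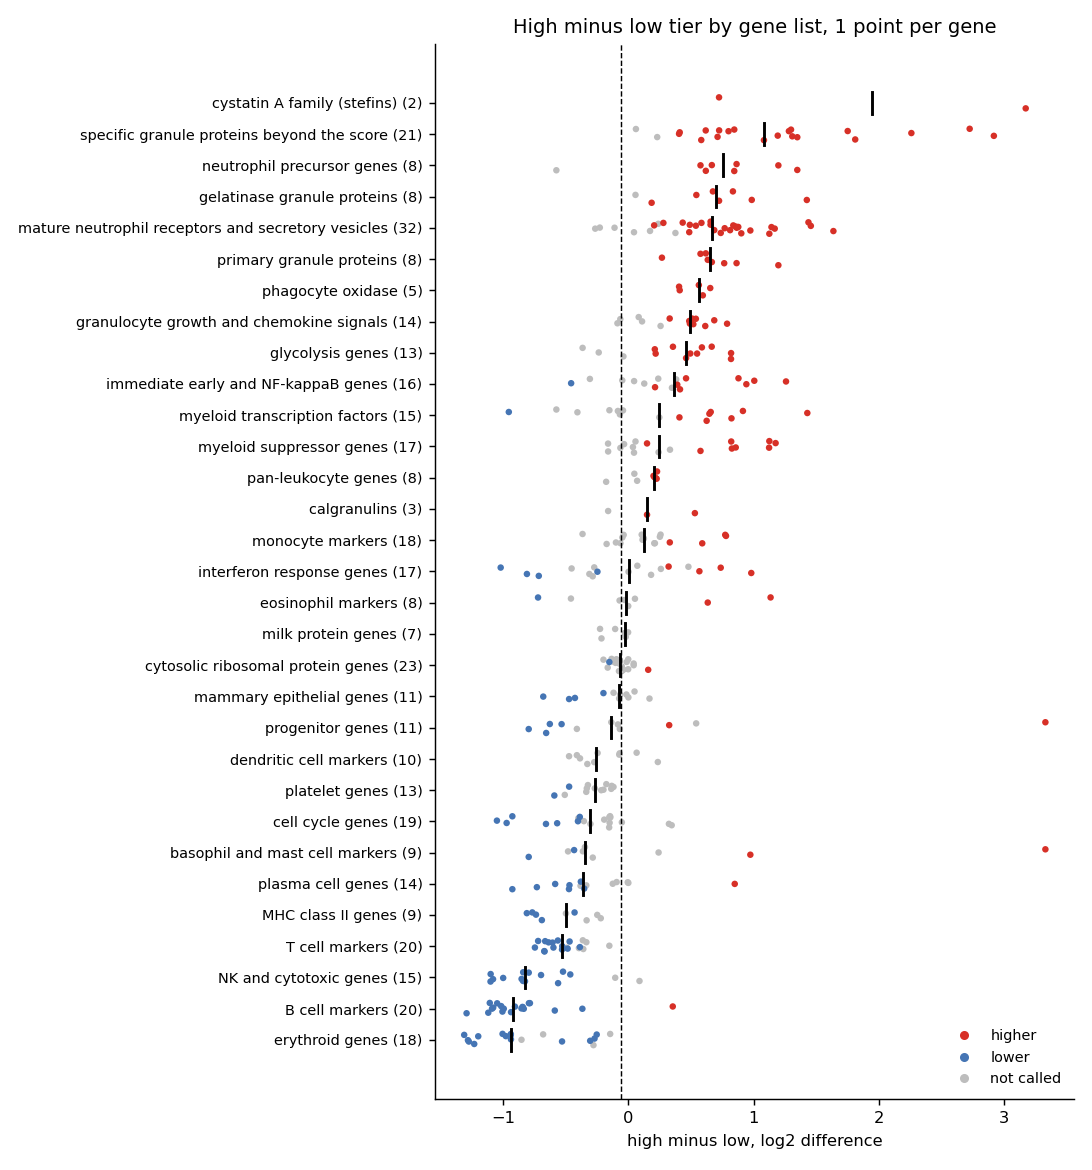
Difference between high and low tier on the log2 scale (horizontal axis) for the genes of each list (vertical axis); points are genes in red (called higher), blue (called lower) or grey (not called), black ticks are list medians, numbers in brackets count the genes, and the dashed line is the median of all genes, -0.06. The specific granule list has a median of 1.08, and the B cell and erythroid lists have medians of -0.92 and -0.94.

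Genes of mature neutrophils rose in large part: 25 of 32 receptors and secretory vesicle genes were higher and 0 lower, with a median of 0.67. Wfdc21, a small secreted whey acidic protein domain gene, rose by 1.44 ± 0.132 (adjusted p = 9.63e-10). Among the receptors, Tlr4, which senses lipopolysaccharide, rose by 1.17 ± 0.123 (adjusted p = 1.01e-08), and Clec4e, the mycobacterial glycolipid receptor Mincle, by 1.12 ± 0.11 (adjusted p = 4.04e-09). Hdc, the enzyme that makes histamine, rose by 0.97 ± 0.109 (adjusted p = 3.28e-08), and Siglece, an inhibitory sialic acid receptor, by 0.90 ± 0.0967 (adjusted p = 1.49e-08). Siglece ran from 11.8 to 12.7 in the high tier and from 10.8 to 11.9 in the low tier, so the ranges overlapped slightly.

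The phagocyte oxidase, which makes superoxide, rose in 5 of 5 subunits with a median of 0.56. Ncf4, the cytosolic p40phox subunit, rose by 0.65 ± 0.0896 (adjusted p = 1.24e-06), Rac2, its small GTPase, by 0.56 (adjusted p = 3.78e-06), and Cybb, the catalytic chain, by 0.41 ± 0.139 (adjusted p = 0.0312). Of 15 myeloid transcription factors 7 rose and 1 fell, with a median of 0.25. Klf5 rose by 1.43 ± 0.155 (adjusted p = 1.9e-08) and Spi1, encoding PU.1, by 0.91 ± 0.103 (adjusted p = 3.64e-08). Stat3, which carries the signals of G-CSF and IL-6, rose by 0.62 ± 0.0788 (adjusted p = 3.33e-07) with 4 of 4 probe sets, and Cebpd, a C/EBP factor of later granulocytes, by 0.65 ± 0.134 (adjusted p = 0.000502). The factor that fell was Gfi1b (-0.95 ± 0.223, adjusted p = 0.00177), which acts in erythroid and megakaryocyte cells.

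Among genes of granulocyte growth factor and chemokine signalling, 9 of 14 rose and 0 fell (median 0.49). Csf2rb, the shared beta chain of the GM-CSF, IL-3 and IL-5 receptors, rose by 0.69 ± 0.0754 (adjusted p = 2.32e-08), and Socs3, a feedback inhibitor that STAT3 induces, by 0.79 ± 0.0952 (adjusted p = 1.59e-07). Csf3r, the G-CSF receptor, rose by 0.54 ± 0.095 (adjusted p = 6.38e-05) and Cxcr2, the receptor that draws neutrophils from marrow to tissue, by 0.49 ± 0.0741 (adjusted p = 7.4e-06). Of 8 neutrophil precursor genes tested, 7 rose with a median of 0.76, and they overlap with the granule lists. Fcnb, ficolin B, rose by 1.35 ± 0.238 (adjusted p = 6.5e-05) and Chil3, the chitinase-like protein Ym1, by 0.85 ± 0.165 (adjusted p = 0.000244). Gfi1, a repressor needed for neutrophil development, did not pass and pointed down (-0.57 ± 0.22, adjusted p = 0.057).

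Genes used as markers of suppressive myeloid cells, immediate early genes and glycolysis genes also tended upward. Of 17 suppressor genes 8 rose and 0 fell (median 0.24), among them Il4ra, the IL-4 receptor alpha chain (1.18 ± 0.118, adjusted p = 4.62e-09), Cd33 (1.12, adjusted p = 9.87e-09), Trem1 (0.86, adjusted p = 1.46e-06) and the arginase Arg2 (0.83, adjusted p = 3.16e-07). Of 16 immediate early and NF-kappaB genes 8 rose and 1 fell (median 0.37). Ier3 rose by 1.26 ± 0.119 (adjusted p = 1.65e-09), Jun by 1.00 (adjusted p = 9.07e-06) and Junb by 0.88 (adjusted p = 3.94e-05), whereas Egr1 fell by 0.46 (adjusted p = 0.00832). Glycolysis rose in 10 of 13 genes with 0 lower (median 0.46): Slc2a1, the glucose transporter GLUT1, by 0.82 ± 0.102 (adjusted p = 2.7e-07), Ldha, lactate dehydrogenase A, by 0.59 ± 0.0742 (adjusted p = 3.45e-07), Hk3, a hexokinase of myeloid cells, by 0.82 (adjusted p = 9.62e-06) and Pgk1 by 0.36 (adjusted p = 1.04e-05). The cytosolic ribosomal proteins did not share this rise, with 1 of 23 higher, 1 lower and a median of -0.07.

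Lymphocyte transcripts were lower where granule transcripts were high. Among 20 B cell markers, 19 were lower and 1 was higher in the high tier (median -0.92). Ms4a1, the B cell surface protein CD20, had 8.07, 9.12 and 9.6 in the high tier and 7.87, 10.3 and 11 in the low tier (-1.01 ± 0.22, adjusted p = 0.000812). Ralgps2 had 7.67, 8.78 and 9.69 against 8.77, 9.67 and 10.3 (-1.0 ± 0.153, adjusted p = 7.44e-06), and the B lineage transcription factors Spib and Ebf1 fell by 1.10 (adjusted p = 0.000475) and by 1.09 ± 0.227 (adjusted p = 0.000544). The member that rose was Cd37, a tetraspanin of B cells and other leukocytes (0.35, adjusted p = 0.00411).

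The mean of the B cell list ran from 7.265 to 8.501 in the high tier, from 6.939 to 9.685 in the low tier and from 8.484 to 10.1 in controls. The lowest of the low tier, validation array 9, also had the highest erythroid mean of that tier (11.24). Without it 5365 probe sets were called higher and 5297 lower, and Cybb, Sox4 and Epcam were no longer called. The fall of Ms4a1 was 1.42 within training arrays, and within validation arrays the difference was -0.49 (adjusted p = 0.519).

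Plasma cell genes fell in 7 of 14 and rose in 1 (median -0.37). Mzb1, a chaperone of antibody secretion, fell by 0.92 (adjusted p = 0.000802) and Jchain, which joins IgM and IgA, by 0.73 (adjusted p = 0.00246), while Xbp1, a factor of the unfolded protein response in many secretory cells, rose by 0.85 ± 0.0859 (adjusted p = 5.61e-09). MHC class II genes, which present antigen on B cells and other cells, fell in 5 of 9 (median -0.50), where H2-Eb1 fell by 0.74 (adjusted p = 0.00353), H2-Oa fell by 0.69 (adjusted p = 0.00244) and H2-Aa fell by 0.43 (adjusted p = 0.043).

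T cell markers fell in 14 of 20 (median -0.53) and NK and cytotoxic genes in 13 of 15 (median -0.82), and 0 rose in either list. Klrk1, the activating receptor NKG2D, had 4.58, 6.67 and 7.14 in the high tier against 6.53, 7.56 and 8.34 in the low tier and fell by 1.10 ± 0.189 (adjusted p = 4.47e-05). Of the T-box factors of cytotoxic cells, Tbx21 fell by 0.85 (adjusted p = 0.000154) and Eomes by 0.79 (adjusted p = 0.000227). Fasl, the death ligand, fell by 0.84 (adjusted p = 0.000191), and Klrd1, the CD94 receptor chain, by 0.70 (adjusted p = 0.000134). Among the T cell markers Lat, an adaptor of the T cell receptor, fell by 0.67 ± 0.137 (adjusted p = 0.000404), Zap70, a kinase of that receptor, by 0.60 (adjusted p = 0.000491) and Cd2, an adhesion molecule, by 0.66 (adjusted p = 0.000681). Dendritic cell markers had 0 of 10 called by limma, with a median of -0.26.

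**Figure D4:**
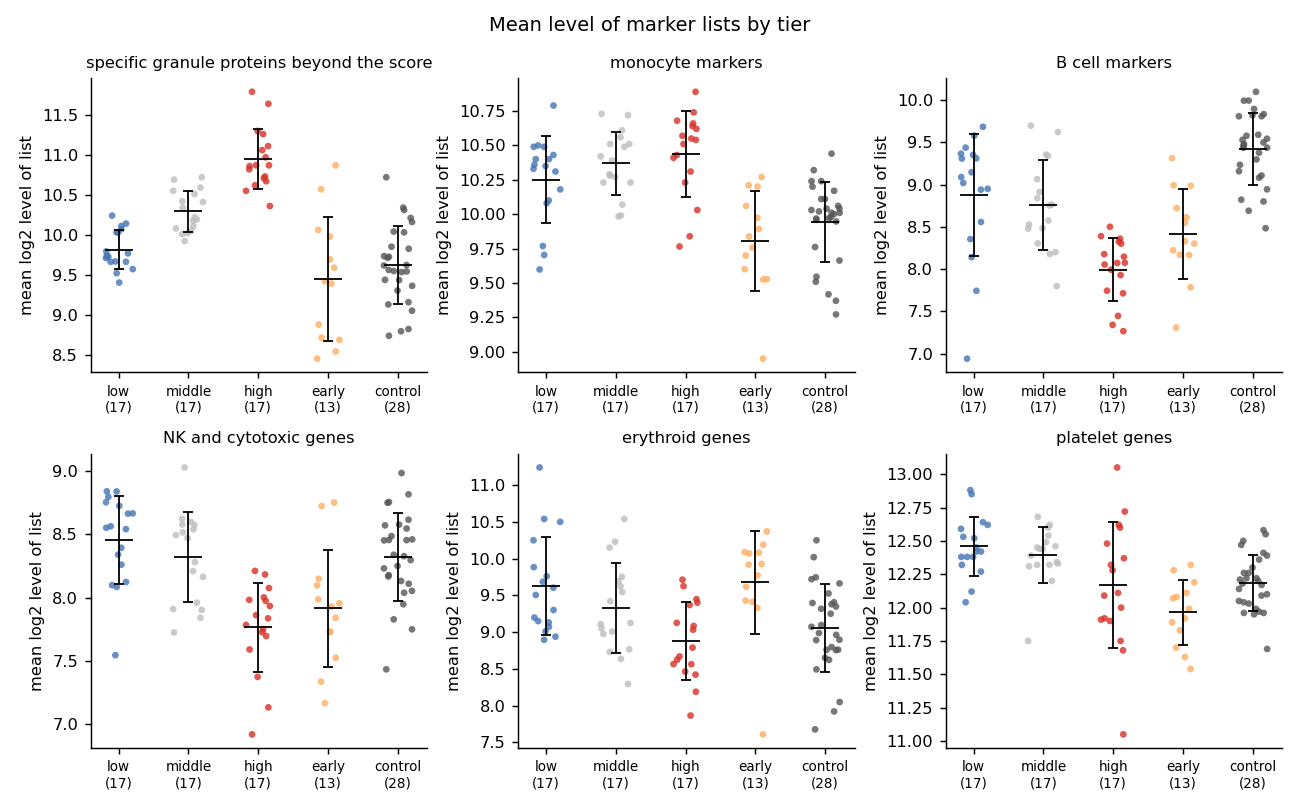
Mean log2 value over the genes of a marker list (vertical axis) on each array of the high, middle and low tiers, the controls and the low-numbered tumor arrays, marked early (horizontal axis); points are arrays and black bars are the mean ± SD. The specific granule means of high and low tiers do not overlap, while the B cell and erythroid means do.

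Erythroid transcripts fell as well, although erythrocytes had been lysed. Reticulocytes and nucleated precursors can remain in a leukocyte pellet, and the source of these transcripts was not tested. Of 18 erythroid genes 14 fell and 0 rose (median -0.94). Tal1, an erythroid and stem cell transcription factor, had 8.68, 9.97 and 11.5 in the high tier against 10.1, 11 and 11.8 in the low tier, with 11 of 17 high arrays below the lowest low array (-0.94 ± 0.181, adjusted p = 0.000216). Gata1, the main erythroid factor, fell by 0.94 (adjusted p = 0.000965), Car1, a carbonic anhydrase of red cells, by 1.31 ± 0.293 (adjusted p = 0.00112), and Hemgn, hemogen, by 1.28 (adjusted p = 0.00145). Alas2, the first enzyme of heme synthesis in red cells, fell by 0.27 (adjusted p = 0.0013).

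The erythroid mean ran from 7.866 to 9.714 in the high tier, from 8.896 to 11.24 in the low tier and from 7.678 to 10.25 in controls. Its median was 9.506 in the low tier and 9.031 in controls, which differed from the tiers in dap as well. With the erythroid mean as a covariate, 1879 probe sets were called higher and 1358 lower. Gata1, Car1, Hemgn, Alas2 and Gfi1b lost their call with it, as they did with dap, while Tal1 kept its call with both. Gata1, Car1, Hemgn, Alas2 and Tal1 are themselves part of the erythroid mean. Adjusting for it takes out much of their own difference, so no conclusion is drawn from their calls with it. Of 13 platelet genes 2 fell, near the share of all genes that were lower (12.4%), with a list median of -0.27. Gp5 fell by 0.59 (adjusted p = 0.0161) and Itga2b by 0.47 (adjusted p = 0.0364), and the platelet factor Pf4 differed by -0.14 (adjusted p = 0.0685). Of 19 cell cycle genes 7 fell and 0 rose (median -0.30), among them Birc5, survivin (fell by 0.97, adjusted p = 0.00403), and the spindle protein Tpx2 (fell by 1.05, adjusted p = 0.00347), of which 1 of 4 probe sets was called. Gp5, Itga2b, Birc5 and Tpx2 also lost their call with either covariate.

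The 12 largest falls were smaller than the rises. Bmp2, a bone morphogenetic protein, had 4.75, 5.89 and 8.31 in the high tier against 6.39, 7.77 and 9.0 in the low tier (-1.60 ± 0.281, adjusted p = 6.27e-05). Ajuba, a LIM domain adaptor, had 4.09, 5.25 and 6.95 against 5.54, 6.57 and 8.15, with 14 of 17 high arrays below the lowest low array (-1.45 ± 0.223, adjusted p = 8.36e-06). Fcer2a, the low-affinity IgE receptor CD23 of B cells, fell by 1.29 ± 0.289 (adjusted p = 0.00113).

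The other falls were Tspan8 (-1.41, adjusted p = 0.00325, 2 of 5 probe sets called), Sox6 (-1.40, adjusted p = 0.000752), Slc38a5 (-1.38, adjusted p = 0.00241), Spire1 (-1.38, adjusted p = 0.000447, 2 of 5 probe sets called), Mpp2 (-1.37), Pamr1 (-1.35, adjusted p = 5.42e-05), Cybrd1 (-1.30, adjusted p = 0.000245), Afap1l1 (-1.30, adjusted p = 3.63e-05) and Mylk3 (-1.29). Sox6 is a transcription factor of red cell maturation, and Cybrd1 is an iron reductase. Tspan8, Sox6, Slc38a5, Spire1, Mpp2 and Mylk3 lost their call with the erythroid mean as a covariate, and also with dap as a covariate. For 0 of the 12 genes did the tiers separate. Within the validation cohort Bmp2 differed by -1.29 (adjusted p = 0.155) and Ajuba by -1.20 (adjusted p = 0.152).

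Monocyte markers were mostly not called. Of 18, 4 rose and 0 fell, with a median of 0.12, where 12.9% of all genes were higher and 12.4% lower. The list mean ran from 9.765 to 10.89 in the high tier and from 9.598 to 10.79 in the low tier. Emilin2, an extracellular matrix glycoprotein, rose by 0.59 (adjusted p = 1.07e-06), Cd14, the lipopolysaccharide co-receptor that neutrophils also carry, by 0.78 (adjusted p = 3.68e-05), and Vcan, versican, by 0.77 (adjusted p = 0.0159). The defining receptors were not called in this contrast, with Csf1r at 0.26 (adjusted p = 0.168) and Ccr2 at 0.25 (adjusted p = 0.17).

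Eosinophil markers had 2 higher and 1 lower of 8 (median -0.02), beside 12.9% and 12.4% of all genes. Siglecf rose by 1.14 ± 0.217 (adjusted p = 0.000189), Prg2 rose as given above, and Il5ra, the IL-5 receptor alpha chain, fell by 0.72 (adjusted p = 0.0279). Of 9 basophil and mast cell markers, the 2 that rose were Hdc and Kit, and the 2 that fell were Gata2 (fell by 0.79 ± 0.161, adjusted p = 0.000366) and Il4 (fell by 0.43, adjusted p = 0.0109), whose highest array was 3.94 in the high tier and 4.84 in the low tier, near background in both. The list's median was -0.35.

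Interferon response genes moved in both directions, with 4 of 17 higher, 4 lower and a median of 0.00, beside 12.9% and 12.4% of all genes. Ifit2 fell by 1.02 ± 0.176 (adjusted p = 4.76e-05), Ifit3 by 0.81 (adjusted p = 0.000807) and Ifit1 by 0.71 (adjusted p = 0.00556), which are induced by type I interferon. Oasl2 rose by 0.98 (adjusted p = 7.56e-05), Oas1a by 0.74 (adjusted p = 0.00143) and Dhx58, the RNA sensor LGP2, by 0.57 (adjusted p = 0.00108), so genes of the same response changed in opposite directions. Ifit1, Oas1a and Dhx58 lost their call with dap or the erythroid mean as a covariate, and Ifit3 did with dap.

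Transcripts of mammary cells were examined because the donors carried mammary tumors. Milk protein genes had 0 of 7 called by limma (median -0.03), and their mean stood between 2.396 and 5.646 in the high tier, between 2.551 and 3.841 in the low tier and between 2.417 and 2.849 in controls, near the bottom of the measured range for most arrays. The value of 5.646 was that of validation array 24 alone. The next highest mean was 3.06 in the high tier and 3.654 in the low tier. Beside 12.4% of all genes lower, mammary epithelial genes had 4 lower and 0 higher of 11 (median -0.07), with Krt8 (fell by 0.47, adjusted p = 0.0101), Krt18 (fell by 0.68, adjusted p = 0.0458) and Epcam (fell by 0.43, adjusted p = 0.0274) among them. Their list mean lay between 4.039 and 4.441 in the high tier and between 4.068 and 4.566 in the low tier. Myc was read by a probe set that was not shown to separate the endogenous transcript from that of the transgene. Myc had 7.64, 8.48 and 9.25 in the high tier and 7.32, 8.7 and 9.77 in the low tier, a difference of -0.16 ± 0.21 (adjusted p = 0.634) with widely overlapping tiers. Its control median was 7.86. Among pan-leukocyte genes 5 of 8 rose and 0 fell (median 0.20), including Lcp1, L-plastin, by 0.22 (adjusted p = 0.000208) and Ptprc, CD45, by 0.23 (adjusted p = 0.00841).

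The control and low-numbered tumor arrays had no part in making the tiers and give a check of which genes move with the score elsewhere. In the 28 control arrays, limma called a positive slope on the score for 668 genes (3.67%) and a negative slope for 33 (0.181%), and of all probe sets 1267 (2.81%) and 97 (0.215%). In the 13 low-numbered tumor arrays it called 527 positive (2.90%) and 91 negative (0.500%), and of all probe sets 843 (1.87%) and 210 (0.466%). Of the 2352 genes higher in the high tier, 494 (21%) also had a called positive slope in controls, which is 74.0% of the 668, and 0 had a called negative one. In low-numbered tumor arrays 501 (21.3%) were called in the same direction, 95.1% of the 527.

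Of the 2250 genes lower in the high tier, 7 (0.311%) had a called negative slope in controls, 21.2% of the 33, and 3 had a called positive one. In low-numbered tumor arrays 75 (3.33%) were called in the same direction, 82.4% of the 91. Signs, without a call, matched in controls for 89.8% of the higher genes and 69.0% of the lower genes. The 12 largest rises were called in controls for 12 of 12 and in low-numbered tumor arrays for 10 of 12, with Cpne8 and Gm11545 as the exceptions. The 12 largest falls were called in controls for 0 of 12 and in low-numbered tumor arrays for Fcer2a alone.

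Of 21 specific granule genes, 19 had a called positive slope in controls, where 3.67% of all genes had one. So had 4 of 8 genes in the primary granule list, 3 of 8 in the gelatinase granule list, 15 of 32 mature neutrophil genes and 6 of 18 monocyte markers. Among the monocyte markers, Ccr2 had a called slope in controls (0.30, adjusted p = 0.00294 by limma) and Csf1r did not (0.17, adjusted p = 0.11). Of 20 B cell markers, 0 had a called slope in controls in either direction, where 0.181% of all genes had a negative one. In low-numbered tumor arrays limma called negative slopes for Ms4a1 (-0.39, adjusted p = 0.000211) and Spib (-0.39, adjusted p = 0.00132). It also did for Ebf1 (-0.30, adjusted p = 0.00433) and Ralgps2 (-0.27, adjusted p = 0.0106), but not for Btla (-0.25, adjusted p = 0.08) or Cd72 (-0.17, adjusted p = 0.318). Per unit of score, Saa3 changed by 1.5 in controls (adjusted p = 0.000834) and 1.87 over the 51 tumor arrays, and Prok2 by 1.54 (adjusted p = 9.92e-05) and 1.49. Lipg changed by 1.05 in controls (adjusted p = 0.00603) and 2.56 in tumor arrays, and Kit by 0.62 (adjusted p = 0.00447) and 1.5. Prom1 changed by 0.77 in controls and 1.34 in tumor arrays, and Orm1 by 0.80 and 1.29.

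**Figure D5:**
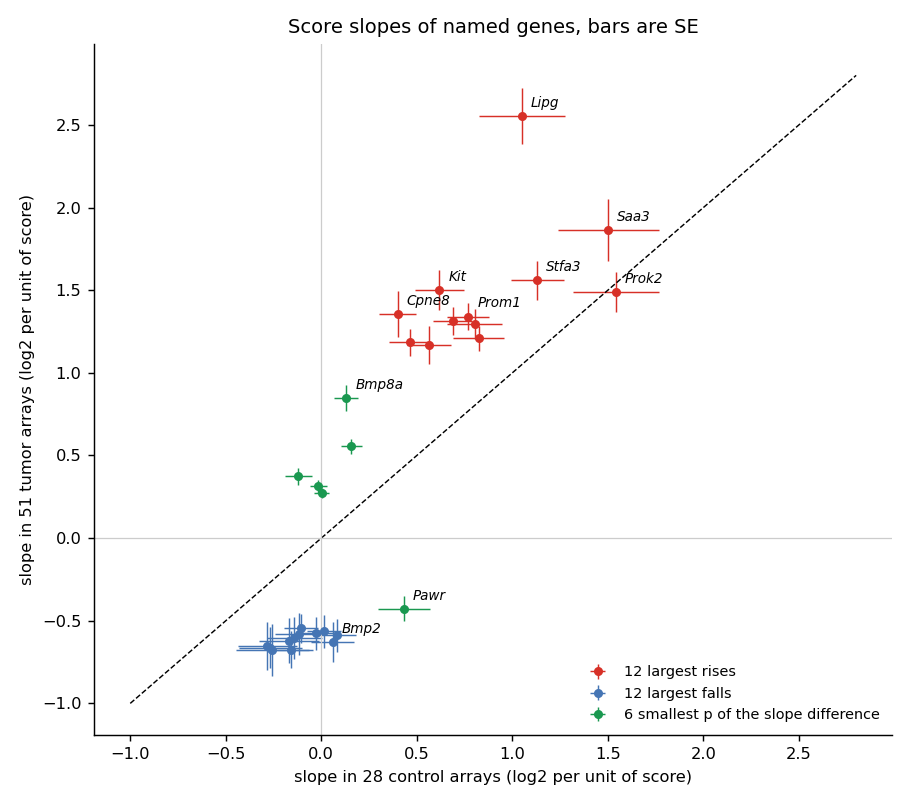
Change in log2 value per unit of score over the 51 tumor arrays (vertical axis) against the same slope over the 28 control arrays (horizontal axis) for the 12 largest rises (red), the 12 largest falls (blue) and the 6 genes with the smallest p of the slope difference (green); points are genes, bars are standard errors and the dashed line marks equal slopes. Prok2 lies at 1.54 in controls and 1.49 in tumor arrays, and Lipg at 1.05 and 2.56.

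The slopes themselves were compared by the interaction of score with tumor status. Limma called a difference for 700 genes (3.85%), 340 with a higher slope in tumor arrays (1.87%) and 360 with a lower one (1.98%), and among probe sets 658 (1.46%) and 686 (1.52%). Of the 6 genes with the smallest p, Bmp8a, a bone morphogenetic protein, had a slope higher by 0.71 ± 0.109 (adjusted p = 0.000142) against control arrays that all lay between 2.8 and 4.23, near background, Galnt6, which starts O-linked glycans, by 0.50, Il4ra by 0.40, Pgs1, an enzyme of cardiolipin synthesis, by 0.35 and Ldha by 0.28, and Pawr, a pro-apoptotic factor, had a slope difference of -0.85. Within tumor arrays Bmp8a rose by 1.84 ± 0.195 from low to high tier (adjusted p = 1.08e-08) and Pawr fell by 0.92 ± 0.177 (adjusted p = 0.000216).

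Tumor and control arrays did not cover the same scores, from -1.69 to 2.05 and from -3.40 to 1.05. When the comparison was limited to the 44 tumor and 21 control arrays in the range that both share, a choice made after seeing the data, limma called 0 genes, with 5164 probe sets at an unadjusted p under 0.05. The difference for Lipg was 0.35 there (adjusted p = 0.854), for Prom1 -0.22 and for Abca13 -0.07. A slope that differs with genotype and a slope that differs with the height of the score cannot be told apart with these arrays. The high and low tumor arrays also differed from the control arrays in dap without overlap (6.9 to 10.8 against 1.74 to 3.55), and its part in the slope differences was not tested.

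The training and validation cohorts were compared last. Limma called 0 probe sets for a difference of the high against low contrast between cohorts, with 2153 at an unadjusted p under 0.05. Of 134 genes named with values, 126 were called over both cohorts, and 126 of these had the same sign within each. Most of these genes were named for their difference or p in the contrast over both cohorts. The choice of genes therefore favored matching signs, and the match is a description only. Within training arrays alone 114 were called and within validation arrays alone 41, and over all probe sets 4103 were higher and 3587 lower in training against 421 and 21 in validation, where the low tier held 6 arrays.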

How the data were processed

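RNA of total white blood cells was amplified and measured on Affymetrix mouse arrays. The deposited values are on the log2 scale, summarized per probe set by the authors with RMA after background correction and normalization between arrays. A version of RMA was not stated in the sources used here, and whether a standardization on control probe sets is included is not stated. Of 45101 probe sets 64 were controls, 34945 carried a single gene symbol, 932 several and 9160 none in the platform annotation, and 34741 of the single-symbol probe sets matched RefSeq GRCm38 by Entrez identifier with 0 symbols changed. Each of 18193 genes was read by its brightest probe set over all arrays.

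No array column was left unmapped, 0 pairs of arrays were identical, and array medians ran from 4.3 to 4.9. Arrays give no counts, and precision rests on their number. The 4 score probe sets were left out of all tests. Contrasts and slopes were fitted with limma 3.58.1 in R 4.3.3 (lmFit, eBayes with trend) with the cohort as a covariate, two-sided, and adjusted by Benjamini-Hochberg over 45033 probe sets. A gene was called at an adjusted p under 0.05. Spike-in and quality measures were compared by permutation tests. The scripts were tested on simulated data.

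The members, score genes and gene lists were chosen with earlier results of these data known. Named genes were the 12 largest rises and falls among called genes above the median level (4.79), up to 6 genes per list with the smallest p, the 6 smallest p-values of the slope difference, and Myc. Cd37, Gfi1b, Gfi1, Lyz2 and Ceacam1, exceptions within their lists, were chosen after their values were seen. Promoters came from RefSeq GRCm38.p6. Alternatives covered the score, cohort, covariates, weights, centring, dim probe sets and the choice of probe set.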

Additional observations from a re-analysis of the deposited data

Results flagged for a closer look

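The slope of a gene on the granule score differed between tumor and control arrays for 38 of the 134 genes named with values. The test was limma's interaction at an adjusted p under 0.05, which called 700 of all 18189 genes (3.85%). Bmp8a, Ldha, Galnt6, Pgs1, Pawr and Il4ra were named for their small p in this same test, so their calls were fixed by the choice. Most of the others were named for a large difference or small p between the tumor tiers, which favors a called slope difference. Of all genes called in that contrast, 316 of 2352 higher and 306 of 2250 lower genes had one. The differences below are tumor minus control, in log2 units per unit of score. Among genes of the largest rises the slope was steeper in tumor arrays for Lipg (1.40), Cpne8 (0.91), Kit (0.80), Gm11545 (0.64), Ambp (0.60), Abca13 (0.55) and Prom1 (0.51). Among genes of the largest falls it was more negative in tumor arrays for Bmp2 (-0.68), Ajuba (-0.66), Fcer2a (-0.57), Pamr1 (-0.55) and Cybrd1 (-0.54).

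Other genes with a steeper slope in tumor arrays were the myeloid receptors and granule genes Siglecf (0.54), Prg2 (0.40), Il4ra (0.40), Itgam (0.26) and Siglece (0.25), the signalling genes Bmp8a (0.71, with control arrays near background), Ier3 (0.35), Jun (0.31) and Rac2 (0.18), and the metabolic genes Galnt6 (0.50), Pgs1 (0.35), Ldha (0.28) and Slc2a1 (0.23). The slope was lower in tumor arrays for the B cell genes Ebf1 (-0.52), Spib (-0.50), Ms4a1 (-0.49) and Ralgps2 (-0.36), for the MHC class II gene H2-Eb1 (-0.44), for the plasma cell genes Jchain (-0.59) and Mzb1 (-0.48), and for the interferon genes Ifit2 (-0.40) and Ifit3 (-0.35). It was also lower for Pawr (-0.85), Gata2 (-0.36), Egr1 (-0.30) and S100a9 (-0.11).

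Within the score range that tumor and control arrays share, 36 of the 38 genes kept the sign of the difference and 0 were called by limma.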

How the results depend on the processing

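Over 134 named genes, 2938 comparisons with an alternative were made, of which 2566 kept direction and side of the threshold, 320 lost the call, 21 gained one, 28 reversed and 3 moved. Of 5531 probe sets called higher and 4381 lower, 2793 and 2617 were called with dap as a covariate, 1879 and 1358 with the erythroid mean as a covariate, and 421 and 21 in validation arrays alone. Array weights gave 7276 lower. The number in the label is shared by cohorts but pairs no animals, and with it as a replicate block 5404 were higher and 4344 lower (correlation within the block -0.083). Control slopes gave 91 higher and 0 lower as 9 highest against 9 lowest arrays (1391 lower at an unadjusted p under 0.05 by limma), 206 lower without the cohort and 48 lower without dim probe sets, against 1267 and 97. Slopes in low-numbered tumor arrays gave 417 lower without the cohort, against 210. Compared by medians, lys differed by -0.59 (adjusted p = 0.0538), 18S by -0.05 (adjusted p = 0.661) and trp by 0.02 (adjusted p = 0.758). The following alternatives were chosen after seeing the data. The slope difference in the shared score range gave 0 higher and 0 lower, against 658 and 686. The middle 17 arrays, which span a narrow range of scores, gave 0 higher and 0 lower (2747 at an unadjusted p under 0.05 by limma). Their slopes per unit of score reversed sign for Lipg (-0.030), Saa3 (-0.12), Prok2 (-0.44), Bmp2 (0.44), Myc (0.45), Prtn3 (-0.35), Serpinb1a (-0.21), Ms4a3 (-0.020), S100a6 (-0.05), S100a8 (-0.16), Cybb (-0.66), Fcnb (-0.42), Chil3 (-0.22), Vcan (-0.93), Ccr2 (-0.48), Lat (0.72), Zap70 (1.01), Eomes (0.12), Itga2b (0.32), Ifit3 (0.11), Dhx58 (-0.50), Lyz2 (-0.0088) and Ceacam1 (-0.43), with adjusted p-values from 0.816 to 0.999. With the B cell mean as a covariate, Myc (0.32), H2-Eb1 (0.041), H2-Aa (0.19) and Gfi1 (0.20) reversed, and with dap Csf1r (-0.0019) did. The cause was not tested. Values near the lower end of the range, such as Elane and the milk protein genes, limit what can be seen.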
